A study of Homo sapiens with 5 samples.

Results

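WaGa was compared with MKL-1 and MKL-2, 3 cell lines of Merkel cell carcinoma, a skin tumour with neuroendocrine features. The 19232 genes that reached 1 TPM in any of the 3 lines were compared, of 57905 genes in the table, and 3 of the 5 libraries of the series entered the comparison. TPM is an abundance corrected for transcript length, and its total is equal for each library. The fourth Merkel cell carcinoma line, MCC13, and the pre-B-cell leukemia line REH set no comparison and are given as values beside a gene where they help to place it. All lines carried the genotype WT in the labels and were grown in RPMI medium with fetal bovine serum. mRNA was captured from total RNA with oligo-dT and turned into directional libraries. Each line gave 1 library, so a line cannot be told apart from its library, and the distance between MKL-1 and MKL-2 is the only spread available. The read depth behind these values was unknown.

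Merkel cell carcinoma cells carry the transcription factors and secretory granules of Merkel cells, the touch receptor cells of the epidermis. Most such tumours hold an integrated Merkel cell polyomavirus, and WaGa, MKL-1 and MKL-2 are widely used as virus-positive lines that grow in suspension. Such tumours are known for low levels of HLA class I molecules, which present peptides to T cells, and for expressing genes of the early B lineage.

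For each gene the gap was the difference on log2(TPM + 1) between WaGa and the nearer of the other 2 lines, and 0 where WaGa lay between them. A gene was called at a gap of 2 or more in size, which is 4-fold on TPM + 1. This scale understates the difference of genes at low levels. WaGa was called higher for 261 genes (1.36% of those compared) and lower for 188 (0.978%). For MKL-1 set against the other 2 lines in the same way, 1.05% were called higher and 0.629% lower, and for MKL-2 1.64% and 1.38%, so WaGa stood between the other lines in the number of genes of its own. The gap was larger than the distance between MKL-1 and MKL-2 for 252 of the 261 and for 184 of the 188. These genes were selected by that same gap, so the comparison describes them and lends the calls no support. With limma, 0 of 19232 genes passed an adjusted p of 0.05, 873 had an unadjusted p under 0.05 and the smallest adjusted p was 0.953. With 1 residual degree of freedom that fit had little power, and the gaps below are therefore descriptions of 3 libraries without a passing test.

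**Figure D1:**
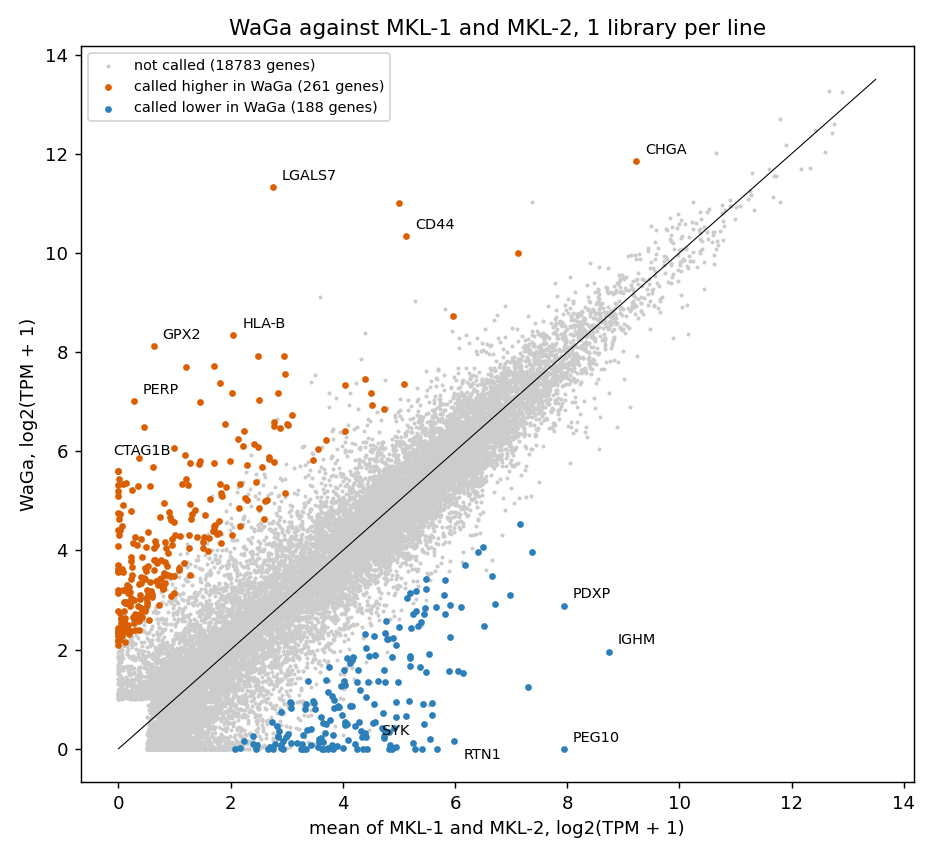
Level of each of the 19232 genes in WaGa (vertical, log2(TPM + 1)) against the mean of MKL-1 and MKL-2 (horizontal, same scale), with 1 library per line and the line of equal levels drawn. The 261 genes called higher and the 188 called lower lie at the edges, and most of them near 0 on one side.

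Most called genes were close to off on one side. Of the 261 genes higher in WaGa, 138 stood under 1 TPM in both MKL lines and 23 were listed at 0 in both. Of the 188 lower genes, 113 stood under 1 TPM in WaGa and 21 were listed at 0 there. Such genes were compared only through the side where they are high, which limits every count of calls over a list. A gene listed at exactly 0 may be one whose estimate failed. WaGa was also at least 4-fold above MCC13 for 193 of the higher genes and below it for 72 of the lower ones. The plot of WaGa against the mean of the MKL lines shows both sets against the genes not called. Between pairs of lines, 1022 genes differed at least 4-fold for WaGa and MKL-1, 1373 for WaGa and MKL-2 and 1217 for MKL-1 and MKL-2. Protein-coding genes made up 78.2% of the higher set, 82.4% of the lower set and 71.4% of all genes compared.

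The shared Merkel cell programme came first. Genes at similar levels in the compared lines cannot tell one of these lines from another, so they do not check the labels among them. ATOH1, the factor that specifies Merkel cells, stood at 1067 TPM for MKL-1, 789 for MKL-2 and 869 for WaGa. INSM1, a repressor that marks neuroendocrine tumours, was nearly level at 582, 573 and 572 TPM across MKL-1, MKL-2 and WaGa. The keratin KRT20, a diagnostic marker of these tumours, was at 14.5 TPM for MKL-1, 203 for MKL-2 and 466 for WaGa. PAX6 (65.4, 109 and 78.1 TPM in the same order) and EBF1 (64.6, 52.7 and 55.5 TPM) lay between the MKL lines in WaGa. PAX5, the B-lineage factor the series is about, was lowest in WaGa at 38.4 TPM, against 91.9 TPM for MKL-1 and 75.03 for MKL-2, a gap of -0.95 that fell short of a call. Of 25 Merkel and neuroendocrine genes compared, 2 were called higher and 1 lower, beside 1.36% and 0.978% over all genes. The median gap was 0, the same as over all genes. The lower gene, NEUROD1, was compared only because an MKL line reached 1 TPM, so the count is not read as a result.

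Markers of other cell types were low, apart from some keratinocyte genes. In these bulk cultures fewer cells of a type and less RNA per cell cannot be told apart. Only 4 of 20 leukocyte markers reached 1 TPM, with a summed level of the whole list of 21.3 TPM for MKL-1, 30.2 for MKL-2 and 25.7 for WaGa, against 3228 TPM in REH, and the T-cell genes CD3D and CD3E were listed at 0 in all 3. Fibroblast markers summed to 36.4, 3.96 and 37.9 TPM (4 of 10 at 1 TPM or more), endothelial markers to 20.3, 12.9 and 9.91 TPM (3 of 9), and melanocyte markers to 4.74, 5.67 and 3.84 TPM (3 of 7), each in the order MKL-1, MKL-2, WaGa. Keratinocyte markers differed between the lines, with sums of 15.5, 132 and 351 TPM (3 of 12), of which SFN, an epithelial 14-3-3 protein, made 2.53, 123 and 332 TPM. KRT10 (8.55, 7.54 and 12.2 TPM) and KRT5 (4.19, 0.676 and 5.95 TPM) were the other 2 at 1 TPM or more, and all 3 were highest in WaGa. The other 9 markers stayed under 1 TPM in every line, with KRT14, IVL and LOR listed at 0 in all 3. No member of these 5 lists was called, beside 1.36% higher and 0.978% lower over all genes.

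The gene that stood highest in WaGa over the MKL lines was LGALS7, which codes for galectin-7, a lectin of stratified epithelia. It was at 1.59 TPM for MKL-1, 16.4 for MKL-2 and 2578 for WaGa, and was listed at 0 in MCC13 and REH, so the gap was 7.21. Its near-identical copy LGALS7B stood at 9.27, 98.3 and 2060.3 TPM across MKL-1, MKL-2 and WaGa (gap 4.38). Reads of the copies could be split between them by the counting, and the 2 values are uncertain on their own. GPX2, a glutathione peroxidase of gut epithelium, stood at 1.05 TPM for MKL-1, 0.163 for MKL-2 and 278 for WaGa (gap 7.09). PERP, a component of desmosomes that p53 family members activate, was at 0.0683 TPM for MKL-1, 0.366 for MKL-2 and 128 for WaGa (gap 6.56), with 41.8 TPM in MCC13. GPX2 and PERP were at or near 1 TPM or less in both MKL lines, while MKL-2 had clearly more of the LGALS7 copies than MKL-1. The summed keratinocyte markers were also highest in WaGa, mostly through SFN, and their part in these values was not tested.

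The RefSeq promoters of these 3 genes are shown because they had the largest gaps. Each line gives the 250 bases before the gene start, 5′ to 3′ on the gene's strand, in GRCh38.p14, at chr19:38773518-38773767 for LGALS7, chr14:64942746-64942995 for GPX2 and chr6:138107420-138107669 for PERP, all on the minus strand. Capitals mark a match to TGANTCA, the AP-1 site, in LGALS7 and PERP, and a match to TGACNNNGC, the core of the antioxidant response element, in GPX2, where it lies on the opposite strand. Both strands were searched, and the 2 motifs can overlap each other.
LGALS7: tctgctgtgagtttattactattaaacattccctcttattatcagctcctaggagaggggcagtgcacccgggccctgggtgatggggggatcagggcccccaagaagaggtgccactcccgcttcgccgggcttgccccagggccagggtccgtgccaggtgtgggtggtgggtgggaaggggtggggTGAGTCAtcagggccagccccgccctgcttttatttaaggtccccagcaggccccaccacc
GPX2: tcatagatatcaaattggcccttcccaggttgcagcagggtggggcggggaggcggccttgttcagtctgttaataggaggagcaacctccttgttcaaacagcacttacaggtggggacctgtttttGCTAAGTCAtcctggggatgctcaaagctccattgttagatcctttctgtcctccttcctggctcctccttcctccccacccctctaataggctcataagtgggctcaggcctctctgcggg
PERP: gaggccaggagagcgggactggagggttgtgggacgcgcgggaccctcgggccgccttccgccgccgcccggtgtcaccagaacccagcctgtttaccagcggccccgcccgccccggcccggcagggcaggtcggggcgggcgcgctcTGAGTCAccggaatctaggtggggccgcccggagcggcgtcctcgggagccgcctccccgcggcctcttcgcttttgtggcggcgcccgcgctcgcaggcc
The match begins 61 bases before the gene start in LGALS7, 122 bases before it in GPX2 and 101 bases before it in PERP. Of 35116 RefSeq promoters of 300 bases (250 before to 50 after the start), 7.71% hold TGANTCA and 13.3% hold TGACNNNGC, so such matches are common, and they describe the letters only.

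S100 proteins, a phosphatase and an adhesion molecule were also among the 15 genes with the largest gaps above both lines. The calcium-binding S100 proteins S100A14 and S100A16 stood at 211 and 57.5 TPM in WaGa. In the MKL lines S100A14 was at 3.52 TPM (MKL-1) and 1.33 TPM (MKL-2), and S100A16 at 0.675 TPM (MKL-1) and listed at 0 (MKL-2), with gaps of 5.55 and 5.13. S100A16 was still higher in MCC13, at 362 TPM, where S100A14 was at 0.123 TPM. The lipid phosphatase PPAP2C was at 0.125 TPM for MKL-1, 3.67 for MKL-2 and 206 for WaGa (gap 5.47). PVRL2, the adhesion molecule nectin-2, was at 0.0593 TPM for MKL-1, 0.0464 for MKL-2 and 39.5 for WaGa (gap 5.26). MCC13 had 249 TPM of it and REH 60.3 TPM.

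Transcription factors were in the same set. GATA5, a factor of heart and gut development, was listed at 0 in MKL-1 and stood at 0.0242 TPM for MKL-2 and 42.2 for WaGa (gap 5.40). SOX3, a relative of SOX2 in neural progenitors, was at 0.0404 TPM for MKL-1, 0.143 for MKL-2 and 39.8 for WaGa (gap 5.16). SOX2 itself was at 118 TPM for MKL-1, 440.1 for MKL-2 and 124 for WaGa. So the gap was in SOX3 alone of the pair, and WaGa was inside the MKL range for SOX2.

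SMIM1, which carries the Vel blood group, was listed at 0 in both MKL lines and at 38.9 TPM in WaGa (gap 5.32). GAS7, a cytoskeletal adaptor of neurons, was also listed at 0 in both and stood at 36.0 TPM in WaGa (gap 5.21), with 108 TPM in REH and 0.0210 TPM in MCC13. KLRG2 was at 0.209, 0.554 and 89.1 TPM (gap 5.86) and THEG, a testis gene, at 1.57, 3.78 and 166 TPM (gap 5.13), each in the order MKL-1, MKL-2, WaGa. These 4 genes were low in both MKL lines and at no less than 36.0 TPM in WaGa.

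**Figure D2:**
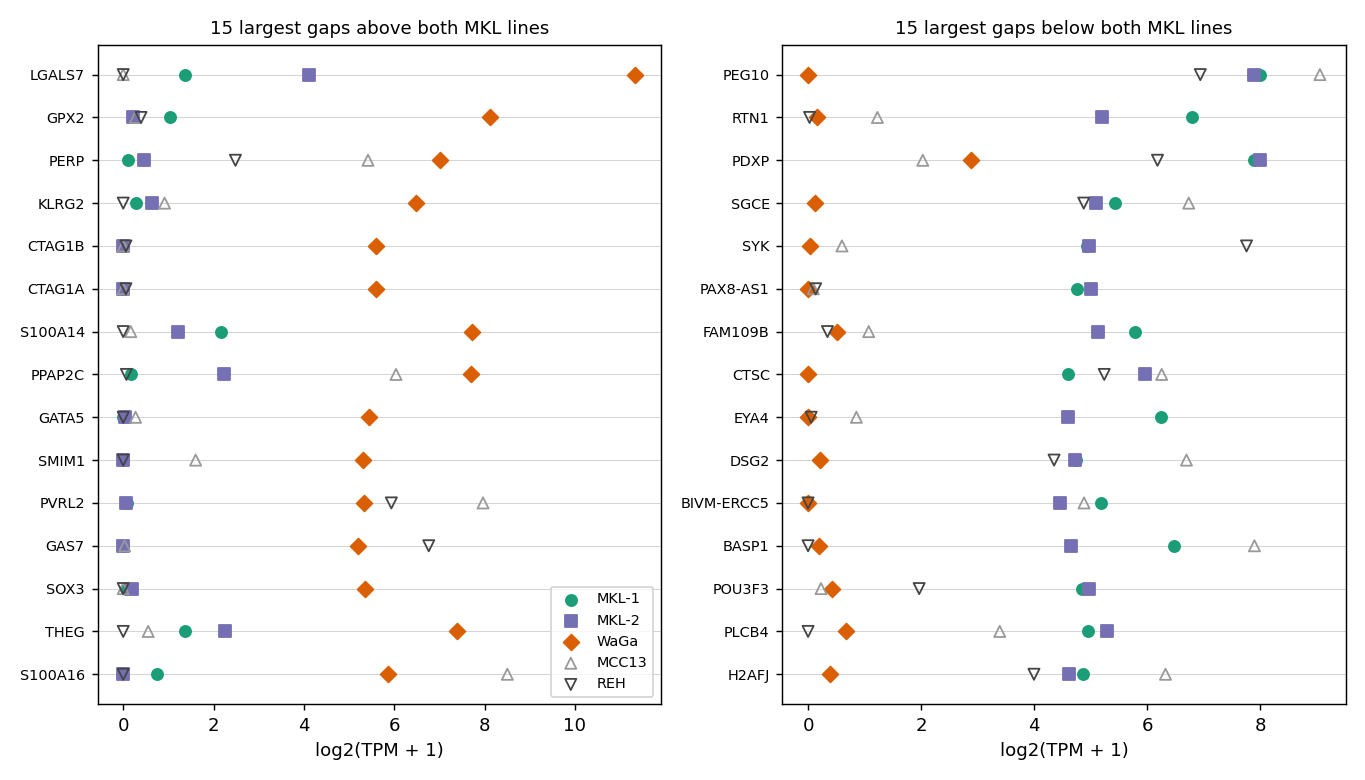
Levels on log2(TPM + 1) of the 15 named genes with the largest gap above both MKL lines (left) and below both (right), 1 symbol per library, with MCC13 and REH as open symbols. The 2 MKL lines lie together on one side and WaGa on the other for each gene, while MCC13 and REH fall on either side.

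Cancer-testis antigens, germline proteins that tumours can express, were mostly off, and 6 of 46 reached 1 TPM in a line. CTAG1B, which codes for NY-ESO-1, was listed at 0 in MKL-1, MKL-2 and MCC13 and stood at 47.4 TPM in WaGa (gap 5.60). Its near-identical copy CTAG1A was listed at 0 in the same 3 lines and at 47.3 TPM in WaGa, so the 2 share reads and count as one observation. PRAME was at 7.07 TPM for MKL-1, 6.43 for MKL-2 and 242 for WaGa (gap 4.91), and MCC13 (317 TPM) and REH (216 TPM) were as high as WaGa. MAGEA9 was listed at 0 in MKL-1 and stood at 0.0493 TPM for MKL-2 and 25.6 for WaGa (gap 4.66). The other 3 genes of the list that reached 1 TPM lay below both MKL lines without a call. CTAG1B and MAGEA9 were compared at all only because they are high in WaGa, so no count over the list is read from them.

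The gene with the largest gap in the other direction was PEG10, an imprinted gene derived from a retrotransposon and expressed from the paternal copy. It was at 253 TPM for MKL-1 and 235 for MKL-2 and was listed at 0 in WaGa (gap -7.88), with 530.02 TPM in MCC13 and 122 TPM in REH. SGCE, its imprinted neighbour, which codes for epsilon-sarcoglycan, was at 42.2 TPM for MKL-1, 33.0 for MKL-2 and 0.0902 for WaGa (gap -4.96), with 105 TPM in MCC13. Both neighbours were thus expressed in every line but WaGa.

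Other imprinted genes differed in both directions. PLAGL1, a zinc finger factor, was listed at 0 in both MKL lines and stood at 12.03 TPM in WaGa (gap 3.70) and 11.7 TPM in MCC13. MKRN3, a regulator of puberty, was at 1.17 TPM for MKL-1, 0.640 for MKL-2 and 24.4 for WaGa (gap 3.55). Of 28 imprinted genes compared, 2 were called higher and 2 lower (1.36% and 0.978% of all genes), with a median gap of 0. MEST (178, 117 and 44.7 TPM across MKL-1, MKL-2 and WaGa), H19 (29.9, 113 and 10.9 TPM) and PEG3 (139, 345 and 91.5 TPM) were lowest in WaGa without reaching a call.

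Heavy-chain immunoglobulin genes formed the longest run of neighbours. IGHM, the constant region of IgM, was at 342 TPM for MKL-1, 535 for MKL-2 and 2.89 for WaGa (gap -6.46), and at 236 TPM in REH. IGHD, the constant region of IgD, was at 11.5 TPM for MKL-1, 52.6 for MKL-2 and 0.337 for WaGa (gap -3.22). Of 16 genes of the heavy-chain locus compared, 13 were called lower in WaGa and 0 higher, beside 0.978% and 1.36% over all genes. Most of the 13 were under 1 TPM in WaGa and were compared only because an MKL line reached 1 TPM. Such genes could not be called higher, so the count is not read as a result. An unbroken run of 11 genes in gene order on chromosome 14, from IGHJ6 to KIAA0125, was lower, with gaps from -2.15 for IGHJ2 to -5.86 for IGHJ2P. The joining segments are very short and neighbours can share reads, so single values there are uncertain. WaGa kept EBF1 within the MKL range, while it stood far below both lines for IGHM.

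SYK, a kinase downstream of the B-cell receptor, was at 29.4 TPM for MKL-1, 30.4 for MKL-2, 0.0225 for WaGa and 215 TPM in REH (gap -4.90). PAX8, a paralogue of PAX5, was at 3.18 TPM for MKL-1 and 3.30 for MKL-2 and listed at 0 in WaGa (gap -2.06). Its antisense neighbour PAX8-AS1 was at 26.1 and 31.2 TPM in MKL-1 and MKL-2 and listed at 0 in WaGa (gap -4.76). No source used here says whether the counting used strand, so reads of the pair cannot be told apart. EBF4 was the only member of the 17 PAX and early B genes called higher, at 0.397, 1.15 and 8.37 TPM across MKL-1, MKL-2 and WaGa (gap 2.13). PAX8 was the only one called lower, beside 1.36% higher and 0.978% lower over all genes. It was compared only because an MKL line reached 1 TPM, so the count is not read as a result. With a pseudocount of 5 the gaps of EBF4 (1.12) and PAX8 (-0.71) no longer reached a call.

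Other genes with large gaps below both lines were named by size of gap alone. RTN1, a neuroendocrine protein of the endoplasmic reticulum, was at 109 TPM for MKL-1, 35.6 for MKL-2 and 0.109 for WaGa (gap -5.04). POU3F3, a neural POU factor, was at 27.7 TPM for MKL-1, 30.3 for MKL-2 and 0.335 for WaGa (gap -4.43), and its noncoding neighbours LINC01158 and RP11-13J10.1 were listed at 0 in WaGa. These 3 genes formed a run of neighbours on chromosome 2. EYA4, a transcriptional co-activator of sensory organs, was at 74.8 TPM for MKL-1 and 23.1 for MKL-2 and listed at 0 in WaGa (gap -4.59). BASP1, a growth cone protein, was at 87.3, 24.1 and 0.150 TPM (gap -4.45), and PLCB4, a phospholipase of neurons, at 30.1, 38.2 and 0.590 TPM (gap -4.29), in the order MKL-1, MKL-2, WaGa. WaGa was below 1 TPM for each of these genes, while both MKL lines were above it.

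A phosphatase, a protease and an adhesion gene were also on that side. PDXP, the pyridoxal phosphatase, was at 236 TPM for MKL-1, 254 for MKL-2 and 6.41 for WaGa (gap -5.00). CTSC, the lysosomal protease that activates granule enzymes, was at 23.3 TPM for MKL-1 and 61.0 for MKL-2 and listed at 0 in WaGa (gap -4.60). DSG2, a desmosomal cadherin, was at 25.8 TPM for MKL-1, 25.5 for MKL-2 and 0.159 for WaGa (gap -4.51), against 102 TPM in MCC13. So among desmosome genes PERP was high and DSG2 low in WaGa, the reverse of both MKL lines. BIVM-ERCC5 was listed at 0 in WaGa (35.3 and 21.1 TPM in MKL-1 and MKL-2). It is a readthrough of 2 genes whose reads overlap theirs, so its value is uncertain. FAM109B (54.2, 33.8 and 0.422 TPM across MKL-1, MKL-2 and WaGa) and the histone gene H2AFJ (27.9, 23.5 and 0.307 TPM) complete the 15.

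Within the neuroendocrine programme a few genes departed from a shared level. NEUROD1, a neurogenic helix-loop-helix factor, was at 12.8 TPM for MKL-1, 19.97 for MKL-2 and 0.138 for WaGa (gap -3.60). CHGA, chromogranin A of secretory granules, was at 659 TPM for MKL-1, 540 for MKL-2 and 3693 for WaGa (gap 2.48). RBFOX3, a splicing factor of mature neurons, was at 1.07, 1.79 and 18.99 TPM (gap 2.84) in the order MKL-1, MKL-2, WaGa. CHGA was thus above both MKL lines in WaGa, and NEUROD1 was under 1 TPM there and in neither MKL line.

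Granins and neuropeptides split. Of 27 compared, 3 were called higher and 2 lower (1.36% and 0.978% of all genes), with a median gap of 0. CALCB, a calcitonin gene-related peptide, was at 87.2 TPM for MKL-1, 123 for MKL-2 and 6.58 for WaGa (gap -3.54). SCG2, secretogranin II, was at 22.9, 10.9 and 0.413 TPM (gap -3.07), whereas NPW, neuropeptide W, was at 4.27, 5.13 and 27.8 TPM (gap 2.23) and CCK, cholecystokinin, at 0.893, 0.196 and 7.75 TPM (gap 2.21), in the same order. CHGB, the companion granin, was at 126, 133 and 94.5 TPM and not called. Granins of one family thus lay on different sides of the MKL lines.

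Synaptic genes and ion channels gave single departures. RIMS1, a scaffold of the presynaptic release site, was at 8.07 TPM for MKL-1 and 45.9 for MKL-2 and listed at 0 in WaGa (gap -3.18). CHRNB4, a nicotinic receptor subunit, was at 19.01 TPM for MKL-1, 1.33 for MKL-2 and 95.1 for WaGa (gap 2.26). Among 33 transmitter genes 2 were called higher and 1 lower (1.36% and 0.978% of all genes). Of 46 ion channel genes 4 were called higher and 2 lower (1.36% and 0.978% of all genes). CACNA1G, a low-voltage-activated calcium channel, was at 0.873 TPM for MKL-1, 0.630 for MKL-2 and 30.2 for WaGa (gap 4.06). Potassium channel genes KCNA6, KCNA1 and KCNA5, which are neighbours on chromosome 12, formed a run of higher genes, with 33.3, 3.47 and 10.1 TPM in WaGa and gaps of 3.17, 2.04 and 2.89. The small-conductance channels KCNN1 (12.9, 24.9985 and 1.55 TPM across MKL-1, MKL-2 and WaGa) and KCNN2 (38.6, 49.7 and 8.32 TPM) lay below both MKL lines (gaps -2.45 and -2.09).

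Axon guidance and neuronal adhesion genes had more lower than higher calls. Of 52 compared, 6 were called lower and 2 higher, beside 0.978% and 1.36% over all genes, with a median gap of 0. EPHA3, EPHA7, EPHA4 and CNTN4 were compared only because an MKL line reached 1 TPM, so the count is not read as a result. The ephrin receptors EPHA3 (24.3, 21.0 and 0.872 TPM across MKL-1, MKL-2 and WaGa, gap -3.55), EPHA7 (6.04, 6.85 and 0.0502 TPM, gap -2.74) and EPHA4 (5.10, 9.43 and 0.175 TPM, gap -2.38) were among the 6. EPHB2, of the other receptor class, was higher at 5.61, 2.06 and 39.2 TPM (gap 2.61). CNTN4, a contactin, was at 7.06, 7.21 and 0.227 TPM (gap -2.72). The semaphorins SEMA3C (gap -2.45) and SEMA6D (gap -2.01) were the other 2 lower genes, and the netrin receptor UNC5C (gap 2.03) the other higher one.

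Of 30 cadherins and protocadherins 2 were called higher and 2 lower (1.36% and 0.978% of all genes). PCDH11X was at 18.5 TPM in both MKL lines and 0.454 TPM in WaGa (gap -3.75), and CDH18 at 14.95, 42.9 and 0.190 TPM across MKL-1, MKL-2 and WaGa (gap -3.74). PCDH8 (0.393, 1.84 and 22.8 TPM) and PCDHGB4 (0.689, 0.473 and 13.0 TPM) were higher, by gaps of 3.07 and 3.05. Of 24 HOX genes compared, 0 were called, beside 1.36% higher and 0.978% lower over all genes, so few calls would be due at that share. The widest HOX gap was -1.47, for HOXC10 at 4.34 TPM for MKL-1, 5.40 for MKL-2 and 0.930 for WaGa.

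**Figure D3:**
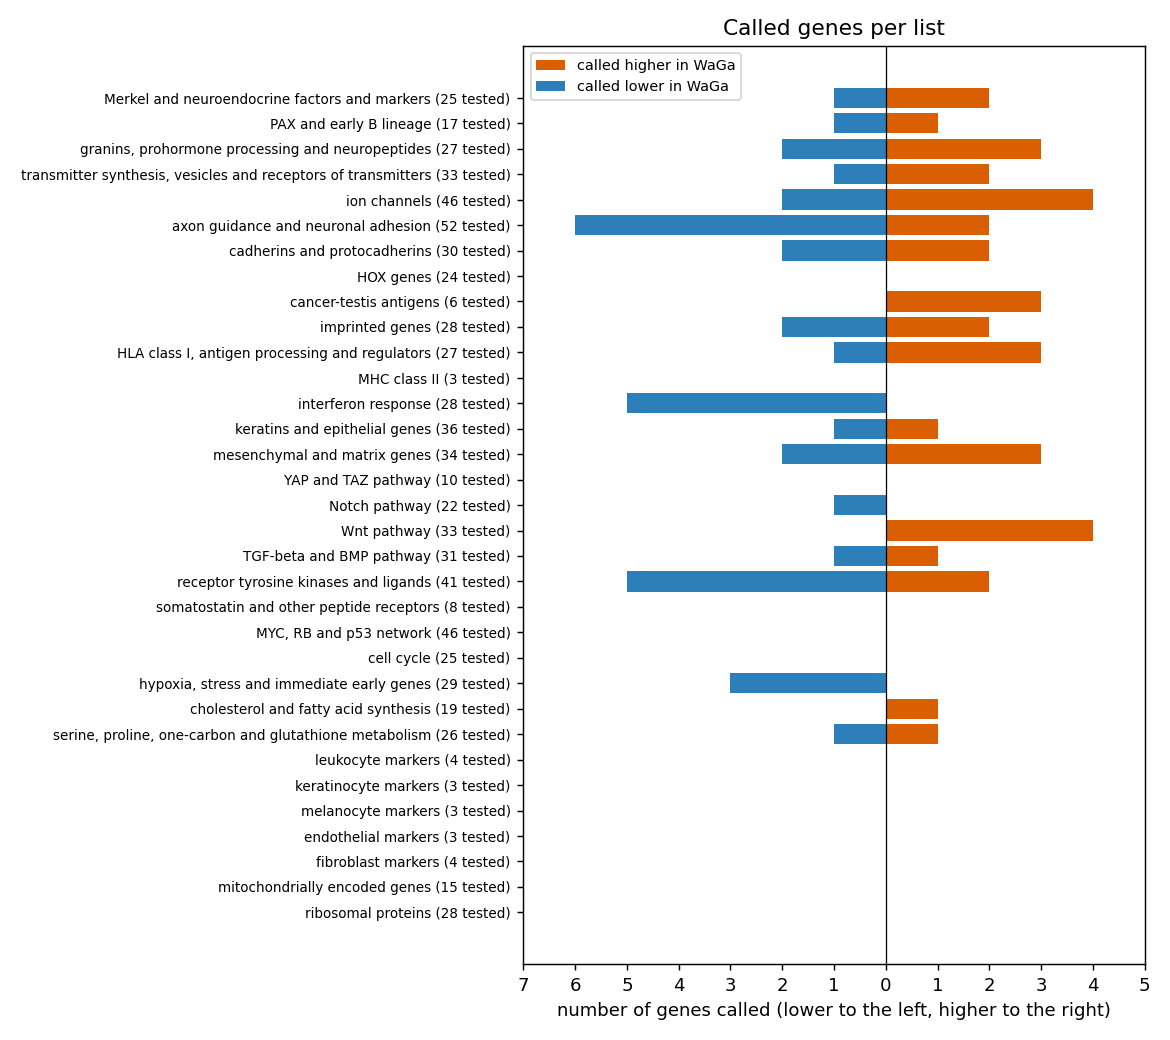
Number of genes called lower (left of 0) and higher (right of 0) in WaGa for each of 33 gene lists, with the number compared in brackets. Bars reach 6 for lower axon guidance genes and 5 for lower interferon and receptor kinase genes, while the cell cycle, HOX and ribosomal lists have none.

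HLA-B and HLA-C were higher in WaGa, while several other genes of the pathway were not. HLA-B was at 0.0637 TPM for MKL-1, 15.1 for MKL-2 and 322 for WaGa (gap 4.33), and HLA-C at 0.933, 15.5 and 243 TPM (gap 3.89). The light chain B2M was lowest in WaGa (256, 397 and 83.0 TPM across MKL-1, MKL-2 and WaGa, gap -1.61), as was HLA-E, a non-classical molecule (206, 695 and 65.4 TPM). TAP1, the peptide transporter subunit, was at 0.333 TPM for MKL-1, 40.2 for MKL-2 and 0.399 for WaGa, and PSMB8, an immunoproteasome subunit, at 2.17, 104 and 1.64 TPM. ERAP1, which trims peptides, was lower in WaGa at 20.6, 20.2 and 3.08 TPM (gap -2.38). Of 27 genes of this list 3 were called higher (with PVRL2, above) and 1 lower (1.36% and 0.978% of all genes), and of 3 MHC class II genes 0. HLA genes share sequence, so how the counting split reads between them is uncertain.

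Some interferon response genes were called lower in WaGa. Interferon signalling acts through JAK kinases and a factor complex with STAT2 and IRF9, which binds a short element in the promoters of antiviral genes. Of 28 compared, 5 were called lower in WaGa and 0 higher, beside 0.978% and 1.36% over all genes. IFIH1, IFIT1 and DDX60 were under 1 TPM in WaGa and were compared only because an MKL line reached 1 TPM. They could not be called higher, so the count is not read as a result. WaGa lay below both MKL lines for 17 of the 28 and above both for 3, where it lay below both for 35.0% of all genes. The median gap was -0.23 against 0 over all genes. IFIH1, a sensor of viral RNA, was at 14.7 TPM for MKL-1, 34.9 for MKL-2 and 0.455 for WaGa (gap -3.43). IRF1, a factor that drives antiviral and HLA genes, was at 22.3, 29.1 and 2.03 TPM in the same order (gap -2.94). USP18, which removes ISG15 from proteins, was at 30.5, 45.5 and 5.62 TPM (gap -2.25). In all 3 genes WaGa was below both MKL lines by more than the distance between them, as for most genes selected by this gap. With a pseudocount of 5 in place of 1 the gaps of IFIH1 (-1.85), IRF1 (-1.96), USP18 (-1.74) and IFIT1 (-0.91) no longer reached a call. IRF1 lies in a block of chromosome 5 that was low as a whole. Its gap less the median of that block, which is taken against the MKL mean, was about -1.66. IFIT1 also lost its call after adjustment for GC content, and IFIT1 and USP18 with MCC13 added.

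The other 2 called genes were low in every line. IFIT1, which binds foreign RNA, was at 5.14 TPM for MKL-1, 7.21 for MKL-2 and 0.379 for WaGa (gap -2.15), and DDX60, a helicase, at 5.14, 3.57 and 0.0679 TPM (gap -2.10). The signalling factors IRF3 and IRF9 were highest in WaGa, by gaps of 0.49 and 0.51. MX1 and BST2, effectors against viruses, were highest in MKL-2 and near 0 in both other lines. IFI6 was at 293 TPM for MKL-1, 1058 for MKL-2 and 118 for WaGa (gap -1.31), lowest in WaGa but not called.

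**Figure D4:**
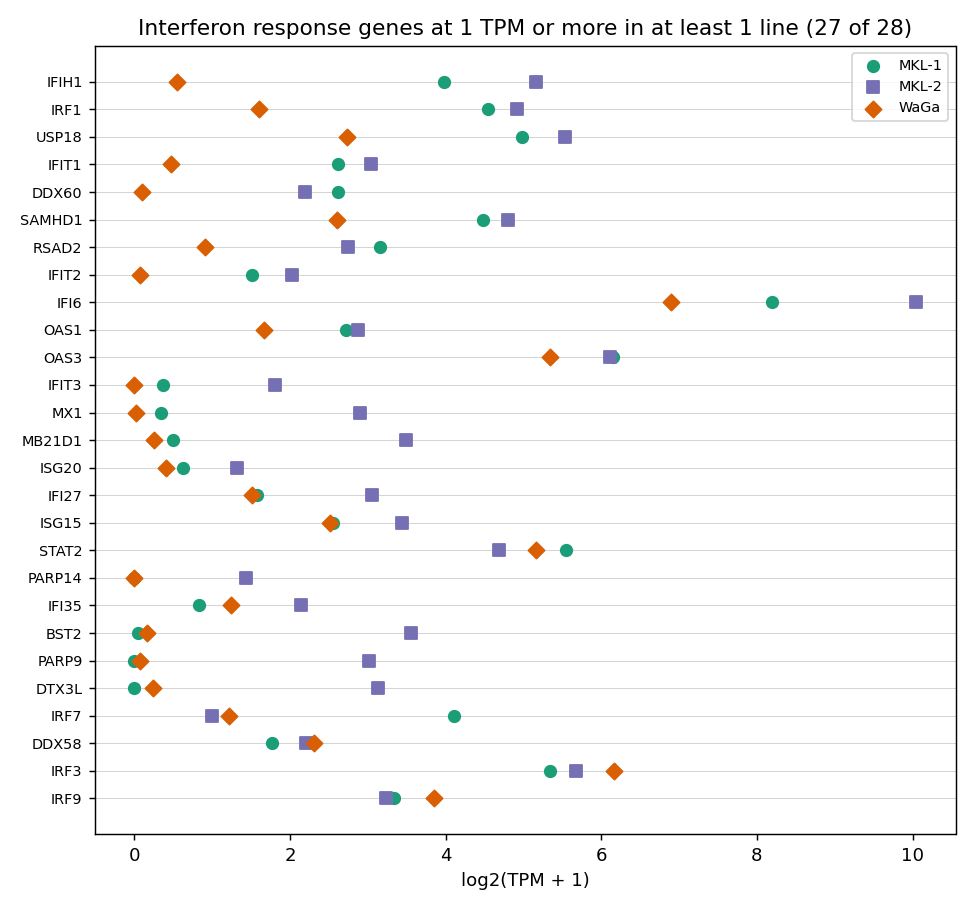
Levels on log2(TPM + 1) of 27 of the 28 interferon response genes that reached 1 TPM in any of the 3 lines, ordered by gap, 1 symbol per library. WaGa is leftmost for the upper 17 genes and rightmost for the lowest 3.

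Promoters of 3 of the 5 called interferon genes are shown as examples of the interferon element, and they are the 3 that hold it among the 4 called genes with a promoter in the table. Capitals mark matches on either strand to GAAA, any 2 bases and GAAA again, the core of the interferon-stimulated response element, which 3.57% of the 35116 RefSeq promoters hold. Of the interferon genes not called, 12 of 18 with a promoter hold it too. The 250 bases before the gene start lie in GRCh38.p14 at chr10:89392373-89392622 (IFIT1, plus strand), chr2:162318685-162318934 (IFIH1, minus strand) and chr4:168318753-168319002 (DDX60, minus strand).
IFIT1: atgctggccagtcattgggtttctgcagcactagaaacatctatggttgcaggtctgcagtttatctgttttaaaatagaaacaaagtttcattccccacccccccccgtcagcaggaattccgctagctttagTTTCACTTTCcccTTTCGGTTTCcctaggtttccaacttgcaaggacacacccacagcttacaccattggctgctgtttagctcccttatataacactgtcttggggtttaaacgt
IFIH1: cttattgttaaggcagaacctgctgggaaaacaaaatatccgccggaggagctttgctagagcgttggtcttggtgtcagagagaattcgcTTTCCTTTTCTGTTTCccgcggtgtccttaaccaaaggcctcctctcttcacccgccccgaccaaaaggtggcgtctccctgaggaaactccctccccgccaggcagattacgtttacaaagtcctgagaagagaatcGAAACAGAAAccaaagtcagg
DDX60: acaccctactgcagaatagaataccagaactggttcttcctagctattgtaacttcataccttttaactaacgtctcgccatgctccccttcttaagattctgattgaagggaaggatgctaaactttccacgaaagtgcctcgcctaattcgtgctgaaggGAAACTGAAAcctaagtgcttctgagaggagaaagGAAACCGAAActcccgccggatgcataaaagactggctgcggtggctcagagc
IFIT1 and DDX60 hold 2 matches each and IFIH1 holds 3, of which 2 overlap in the first stretch of capitals.

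Epithelial and mesenchymal genes were called in both directions. CLDN7, a tight junction claudin, was at 34.4 TPM for MKL-1, 31.9 for MKL-2 and 163 for WaGa (gap 2.21). Of 36 epithelial genes CLDN7 was the 1 called higher and DSG2 the 1 called lower (1.36% and 0.978% of all genes). Few calls would be due at that share, so the count says little about the list. CD44, the hyaluronan receptor, was at 107 TPM for MKL-1, 10.2 for MKL-2 and 1289 for WaGa (gap 3.58), with 423 TPM in MCC13. It formed a run on chromosome 11 with 2 clone-named neighbours that may hold its own reads. LGALS3, galectin-3, was at 0.117, 0.741 and 11.5 TPM across MKL-1, MKL-2 and WaGa (gap 2.85), and the collagen COL25A1 at 23.2, 95.6 and 0.594 TPM (gap -3.93). Of 34 mesenchymal and matrix genes 3 were called higher and 2 lower (1.36% and 0.978% of all genes), and of 10 genes of the YAP and TAZ pathway 0. The kallikrein proteases KLK2, KLK4 and KLK5, neighbours on chromosome 19, formed another run, at 18.1, 6.95 and 7.10 TPM in WaGa with gaps of 2.57, 2.56 and 2.32.

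Signalling lists gave ligands and receptors rather than whole pathways. In the Wnt list of 33 genes 4 were called higher and 0 lower (1.36% and 0.978% of all genes), with a median gap of 0. WaGa lay below both MKL lines for 15 of the 33 and above both for 11. The ligands WNT7A (0.345, 0.555 and 11.9 TPM across MKL-1, MKL-2 and WaGa), WNT6 (0.526, 0.590 and 11.1 TPM) and WNT4 (5.47, 2.06 and 28.04 TPM) had gaps of 3.05, 2.93 and 2.17. RNF43, a ubiquitin ligase that removes Wnt receptors, was at 0.00844, 0.306 and 6.80 TPM (gap 2.58). Thus 3 ligands and an inhibitor were above both MKL lines. WNT7A, WNT6 and RNF43 were compared only because they reached 1 TPM in WaGa, so the count is not read as a result. With a pseudocount of 5 the gaps of WNT7A (1.61), WNT6 (1.53), WNT4 (1.66) and RNF43 (1.15) no longer reached a call.

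Of 41 receptor tyrosine kinases and ligands 5 were called lower and 2 higher (0.978% and 1.36% of all genes). WaGa lay above both MKL lines for 13 of them and below both for 13, with a median gap of 0. LTK was at 45.7 TPM for MKL-1, 16.4 for MKL-2 and 0.05001 for WaGa (gap -4.05). RET, the receptor for GDNF-family ligands, was at 25.4, 16.3 and 1.07 TPM (gap -3.07), and its co-receptor GFRA1 at 4.77, 3.82 and 0.194 TPM (gap -2.01), in the order MKL-1, MKL-2, WaGa. The ligands BDNF (25.2, 13.8 and 1.26 TPM) and FGF5 (11.1, 15.8 and 0.985 TPM) had gaps of -2.71 and -2.61. FGFR3 (12.02, 1.19 and 69.6 TPM) and MST1R (5.66, 2.60 and 31.3 TPM) were higher, by 2.44 and 2.28. Receptor and co-receptor of the GDNF family were therefore both low in WaGa.

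BMP5 (0.317 TPM in MKL-1, listed at 0 in MKL-2, 7.95 TPM in WaGa) and INHBE, an inhibin beta subunit (148, 67.5 and 10.2 TPM), were the called genes of 31 in the TGF-beta and BMP list, with gaps of 2.76 and -2.62. NOTCH2 was the 1 called of 22 Notch genes (3.76, 13.99 and 0.0783 TPM, gap -2.14). Over all genes 1.36% were called higher and 0.978% lower, so few calls would be due in these 2 lists. BMP5 and NOTCH2 were compared only through the side where they are high, so the counts are not read as a result. With a pseudocount of 5 the gaps of BMP5 (1.28) and NOTCH2 (-0.79) no longer reached a call. NOTCH2 also lost its call after adjustment for GC content (-1.97). Of 8 peptide receptors 0 were called, beside 1.36% higher and 0.978% lower over all genes. The nearest was SSTR5, a somatostatin receptor, at 0.0164 TPM for MKL-1, 0.000552 for MKL-2 and 2.43 for WaGa (gap 1.76), while SSTR2 was at 18.3, 3.64 and 51.5 TPM (gap 1.44).

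Proliferation genes and their regulators gave no call. Of 25 cell cycle genes and 46 genes of the MYC, RB and p53 network 0 were called in either direction. Over all genes 1.36% were called higher and 0.978% lower, so lists of this size would hold few calls at that share. PCNA, the replication clamp, was highest in WaGa at 968 TPM for MKL-1, 859 for MKL-2 and 1669 for WaGa (gap 0.79). RB1 was at 69.8, 57.3 and 82.9 TPM and MYCL, which is amplified in some of these tumours, at 121, 87.04 and 127 TPM, in the same order. A gap under the threshold does not show that the lines are alike in these genes.

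Metabolic and stress genes gave few departures, at both low and high levels. SREBF1, which drives lipid synthesis, was at 136 TPM for MKL-1, 139 for MKL-2 and 1023 for WaGa (gap 2.87). It was the 1 called of 19 cholesterol and fatty acid genes, beside 1.36% higher and 0.978% lower over all genes. WaGa lay between the MKL lines for 11 of the 19, above both for 7 and below both for 1, FADS1 (gap -1.30). The whole list summed to 2611 TPM for MKL-1, 7832 for MKL-2 and 7534 for WaGa. SLC7A11, the cystine importer, was at 9.77 TPM for MKL-1, 48.7 for MKL-2 and 0.435 for WaGa (gap -2.91), so among 26 genes of serine and glutathione metabolism it was low where GPX2 was high. Of 29 hypoxia and stress genes 3 were called lower and 0 higher, beside 0.978% and 1.36% of all genes. The median gap was -0.20, and WaGa lay below both MKL lines for 17 of them, beside 35.0% of all genes. ATF3 (39.5, 37.6 and 8.12 TPM across MKL-1, MKL-2 and WaGa) and CHAC1 (44.4, 42.6 and 9.78 TPM), both targets of ATF4, had gaps of -2.08 and -2.02. EGLN3, an oxygen sensor, had a gap of -2.09. With a pseudocount of 5 the gaps of SLC7A11 (-1.44), ATF3 (-1.70), CHAC1 (-1.69) and EGLN3 (-1.16) no longer reached a call. SESN2 (76.7, 75.8 and 18.9 TPM, gap -1.95) and DDIT4 (403, 361 and 102 TPM, gap -1.81) were just short of a call. TRIB3 (345, 101 and 159.8 TPM) and ASNS (268, 164 and 200.4 TPM), other ATF4 targets, lay between the MKL lines. SHMT2, of serine metabolism, fell just outside the threshold at 310 TPM for MKL-1, 341 for MKL-2 and 76.9 for WaGa, as GSTP1 did on the other side (522, 52.01 and 2072 TPM, gap 1.99).

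Neighbouring genes also differed together in smaller steps. Over 12452 genes averaging 5 TPM or more, the median difference of WaGa from the mean of the MKL lines was -0.04 on log2(TPM + 1). Chromosome 19 stood highest at 0.49, with 86.1% of its 952 genes above the MKL mean, followed by chromosome 20 (0.36), chromosome 14 (0.35) and chromosome 6 (0.32). Chromosome 5 was lowest at -0.37. The 3 lines' differences sum to 0 for each gene and are not independent. The genome copy number of the lines was not measured here.

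In blocks of about 50 neighbours the lowest 2 of 249 lay side by side on chromosome 5. From TMEM161B to DCP2 the median difference was -1.24, and WaGa was below both MKL lines for 45 of 48 genes. From MCC to KIF3A it was -1.29, with 46 of 48 below both. LMNB1, lamin B1, in the latter block was at 283 TPM for MKL-1, 292 for MKL-2 and 117 for WaGa. The called genes IRF1, KCNN2 and P4HA2 lie in that block, and ERAP1 and CAST in the former, so these gaps lie in blocks that differed as a whole. Less the block median, the gap of IRF1 was -1.66 and that of ERAP1 -1.14, both under 2 in size. The gap is to the nearer line and the block median is against the MKL mean, so these remainders are approximate.

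The highest block ran from NADK to ENO1 on chromosome 1, at 0.95, with 43 of 50 genes above both MKL lines, next to a block from WASH7P to SLC35E2 at 0.78. SMIM1 and HES2 lie in the former, with gaps of 4.37 and 2.51 less the block median. For LGALS7 on chromosome 19 the gap less the median of its block (0.35) was 6.87. These remainders are approximate too, since block medians are against the MKL mean and gaps to the nearer line. In all, 50 blocks had a WaGa median of 0.3 or more and 40 one of -0.3 or less, against 47 and 11 for MKL-1 and 13 and 46 for MKL-2.

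Transcript GC content moved with the same difference. With the genes in 5 equal groups by GC, the median WaGa difference was 0.22 in the group with the highest GC and -0.13 in the lowest. For MKL-1 against the other 2 lines it was -0.08 in the highest and 0.19 in the lowest, and for MKL-2 -0.15 and -0.02. Each line is set against the others, so the trend cannot be assigned to WaGa alone. Chromosome 19 is rich in GC, and after adjustment for it stood at 0.39, while chromosome 5 stood at -0.29 and the block from MCC to KIF3A at -1.17. The block from NADK to ENO1 stood at 0.89 with the adjustment, so both extremes kept most of their size.

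**Figure D5:**
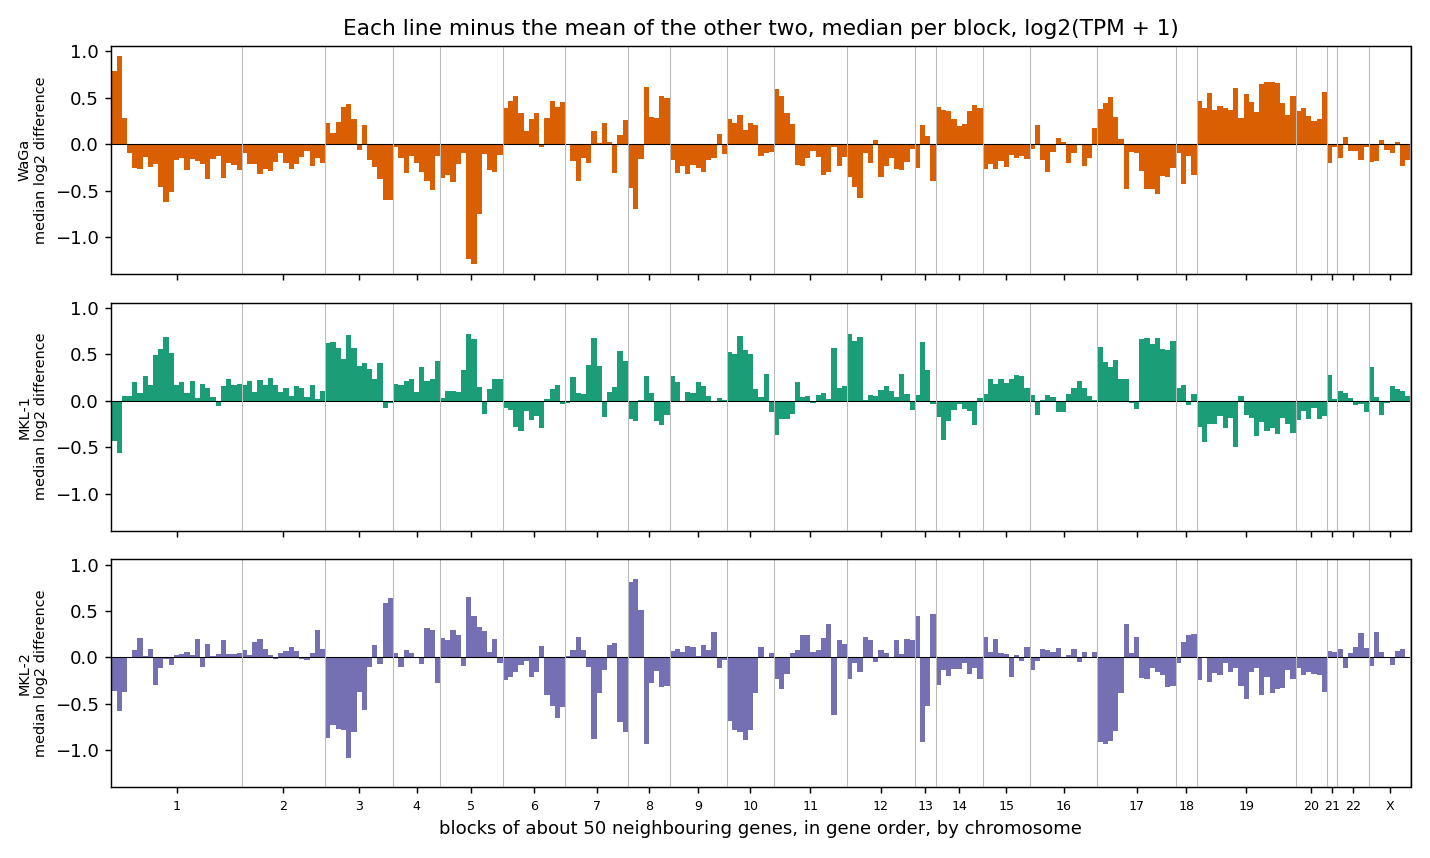
Median difference of each line from the mean of the other 2 on log2(TPM + 1) in 249 blocks of about 50 neighbouring genes in gene order, by chromosome, for WaGa, MKL-1 and MKL-2. WaGa shows a low stretch on chromosome 5 near -1.29, a high start of chromosome 1 near 0.95 and a raised chromosome 19, and the 3 rows sum to about 0.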

How the data were processed

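RNA levels were taken from a deposited table of TPM values that the authors computed for 57905 genes, 1 column per library. Named per the submitters' processing notes, with no role or order, are STAR 2.4.5b, SAMtools 0.1.19, StringTie 1.3.5, bcl2fastq 2.20 and the builds hg19 and GRCh37. Which annotation served for counting: not given in the sources used here. Since TPM totals are equal between libraries, abundant genes move all others and depth is lost. There were 2 columns of values without a matching sample, and these and the PAX5 exon table were not used here.

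Genes that reached 1 TPM in WaGa, MKL-1 or MKL-2 were compared on log2(TPM + 1), with a gap of 2 for a call. limma 3.58.1 in R 4.3.3 was fitted with 1 line against 2 and a trended variance. Its tests were 2-sided, with Benjamini-Hochberg adjustment over all genes compared, and WaGa was assumed to vary as the MKL lines do. Tables were made with pandas 2.3.3 in Python 3.11.15. Of the identifiers 52338 were found in GENCODE 29, used for gene order, type and GC content and not for coordinates, and 246 symbols were shared by several identifiers. Promoters from RefSeq (GRCh38.p14) were found for 69.0% of higher, 63.3% of lower and 63.0% of all genes compared, under 80%, so the planned comparison of promoter GC content between these sets is void and not given.

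The genes compared and the 33 lists (1046 of 1050 symbols found) were chosen with earlier results of these data known. The rule for named genes took the 15 largest gaps in each direction (passing over clone names, immunoglobulin and T-cell receptor segments, small RNA genes, Y-linked genes and XIST), up to 4 members per list, PAX5, PAX6, EBF1 and ATOH1, genes listed at 0 against 50 TPM or more, and the members of the 6 longest runs. Other names were chosen after their values were seen, among them IGHM, IGHD, LGALS7B, HES2, LMNB1, SHMT2, GSTP1, B2M, TAP1, PSMB8, TRIB3, ASNS, SESN2, DDIT4, DDX60 and the called list members beyond 4 per list. Some genes stay in every count but are not reported here by name. The blocks, the GC adjustment and the promoters shown were also chosen after seeing the data.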

Additional observations from a re-analysis of the deposited data

How the results depend on the processing

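No paired analysis was possible because each line has 1 library and the lines share no replicate other than its number. The counts of called genes (261 higher, 188 lower) depend on the scale at low levels. A pseudocount of 0.1 gave 546 higher and 501 lower, and a pseudocount of 5 gave 90 and 47. With genes averaging 5 TPM or more, 140 were higher and 163 lower, which turns the balance of the 2 directions. A gap of 1 gave 986 and 752, and a gap of 3 gave 92 and 71. Leaving out MKL-1 or MKL-2 gave 506 to 706 higher and 516 to 667 lower, since a gene then has 1 line fewer to clear. Adding MCC13 to the MKL lines left 193 higher and 72 lower. Counts without a filter, after quantile normalization, rescaled without mitochondrial genes, without genes listed at 0, and adjusted for GC content (236 and 178, of which 224 and 170 were in the main sets) stayed within 1.5 times. limma gave 0 genes at an adjusted p of 0.05 in all 5 settings tried.

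Of 108 named genes that were called, 54 stayed past the threshold with a pseudocount of 5. With MCC13 added 57 stayed past it, and after quantile normalization 107. None reversed under any of the 11 settings. Most of these settings keep the order of WaGa and the MKL lines or only add or drop a line, which excludes a reversal beforehand. The absence of reversals is therefore not read as stability. PERP, CD44, HLA-B, HLA-C, PRAME, PVRL2 and S100A16 were among those no longer called with MCC13 added. IFIT1, ATF3, EGLN3, NOTCH2, NPW and EBF4 were no longer called after the GC adjustment.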
